A study of Mus musculus with 4 samples.

Results

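The endocardium, the endothelial lining of the heart chambers, was compared between embryonic day (E) 12 and E15. The cells were chosen by their unique molecular identifiers (UMIs), each counted as 1 captured RNA molecule, of 14 genes. A barcode was taken as endocardial when it held at least 1 UMI of Npr3, Tmem108, Cpe or Gsta4, more UMIs of these 4 genes than of the coronary genes Fabp4, Cldn5, Aplnr and Gpihbp1, at least 1 UMI of the endothelial genes Pecam1, Cdh5 or Egfl7, and none of the valve genes Cldn11, Enpp2 and Postn. This left 1131 cells at E12 and 1634 at E15, 2765 of the 11794 barcodes called as cells in these 2 libraries and of 21920 in the whole series. At E12 a barcode needed at least 452 UMIs. At E15 every deposited barcode was used.

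The study sorted CD31+/CD45- cells from hearts of C57Bl6J mice, froze them after the sort, and made 1 single-cell library a stage at E12, E15, postnatal day 2 and in the adult. Hearts of 37 embryos were pooled at E12 and of 48 at E15, and no treatment or genetic change is given for either group. The E15 hearts were digested longer than those at E12. With 1 library a stage there was no replicate, so every interval given here is a 95% interval that covers counting error only, and stage cannot be told apart from library.

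The endocardium forms early in heart development and stays in direct contact with the blood. It sends signals such as neuregulin to the muscle beneath it, and Notch signalling in it is needed for the muscle ridges called trabeculae. Some of its cells turn into the mesenchyme of the valve cushions, and others contribute to the coronary vessels. Between it and the muscle of the early chambers lies a hyaluronan-rich matrix, the cardiac jelly, which is lost as the wall matures.

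The endocardial label was checked with 25 endocardial markers that took no part in the selection. At E12, 22 of them had a higher CPM, the UMIs of a gene scaled to a common total per group, in the endocardial cells than in coronary cells, selected with the same 14 genes turned the other way, and at E15 all 25 did. Cdh11, a cadherin, was at 225 CPM in endocardial and 21.0 in coronary cells at E12, and at 277 and 26.0 at E15. Plvap, the protein of endothelial diaphragms, was at 369 against 113 CPM at E12 and at 583 against 83.4 at E15. Of 19 coronary and capillary markers, 8 were higher in the endocardial cells at E12 and 2 at E15. Of 10 valve markers outside the selection, 7 were higher in the endocardial than in coronary cells at each stage. The check therefore does not separate the endocardium of the chambers from that of the valves. These values are descriptions of the selection and were not tested.

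Not every barcode of the CD31+ sort held endothelial RNA. No UMI of Pecam1, Cdh5 or Egfl7 was found in 2995 of 5732 barcodes at E12 and in 1867 of 6062 at E15. Such barcodes can still be endothelial cells. Exactly 1 UMI of these 3 genes was held by 43.2% of the endocardial cells at E12 and 41.2% at E15. At E15 the barcodes with none carried 554 CPM of the coronary gene Fabp4. Among barcodes with such a UMI, the endocardial share was 41.3% (39.5% to 43.2%) at E12 and 39.0% (37.5% to 40.4%) at E15. With every barcode thinned to 500 UMIs and selected again, the shares were 29.2% and 31.8%. At full depth the order turned as well without Npr3 (28.9% and 31.9%), with 2 or more endocardial and no coronary UMIs (19.5% and 21.5%) and with 2 or more endothelial UMIs and none of other cell types (16.7% and 17.8%), so no direction is read from these shares. The median endocardial cell held 1251 UMIs at E12 and 1009 at E15, and the summed cells held 1535146 and 1813942 UMIs.

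Many cells stood at the edge of the selection. Exactly 1 UMI of the 4 endocardial genes was present in 570 cells at E12 (50.4%) and in 606 at E15 (37.1%). At E12 these cells carried 320 CPM of Plvap, the cells with 2 or more such UMIs carried 415 CPM, and the 873 endothelial barcodes with no UMI of either the endocardial or the coronary genes carried 245 CPM. At E15 the same 3 levels were 568, 591 and 461 CPM. Nfatc1, the classical endocardial transcription factor, was in another order, at 58.5, 70.0 and 71.2 CPM at E12 and 48.4, 44.4 and 65.3 CPM at E15, highest in the barcodes left out. Ties between endocardial and coronary genes put 34 barcodes at E12 and 84 at E15 outside. At E12, 14 endocardial cells lay within 10% above the UMI cutoff and 9 barcodes within 10% below it met the other conditions. A UMI of a coronary gene was carried by 2.48% of endocardial cells at E12 and 7.65% at E15. The same barcode sequence occurred in both libraries 52 times among called barcodes and 5 times among the endocardial cells.

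UMIs were summed per stage and scaled to CPM. Of 4097 genes with at least 100 UMIs over both sums, the 14 selection genes left out, 80 (1.95%) were at least 2-fold higher at E15 and 41 (1.00%) at least 2-fold lower. The 95% interval of the ratio excluded 1 for all 121. The minimum of 100 UMIs and the 2-fold rule together bring this about, so it adds no support. Over all 4097 genes the median log2 ratio was 0.02, and the ratio ran from 0.657 at the 5th to 1.64 at the 95th percentile. Most genes thus differed by less than 2-fold between the stages.

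**Figure D1:**
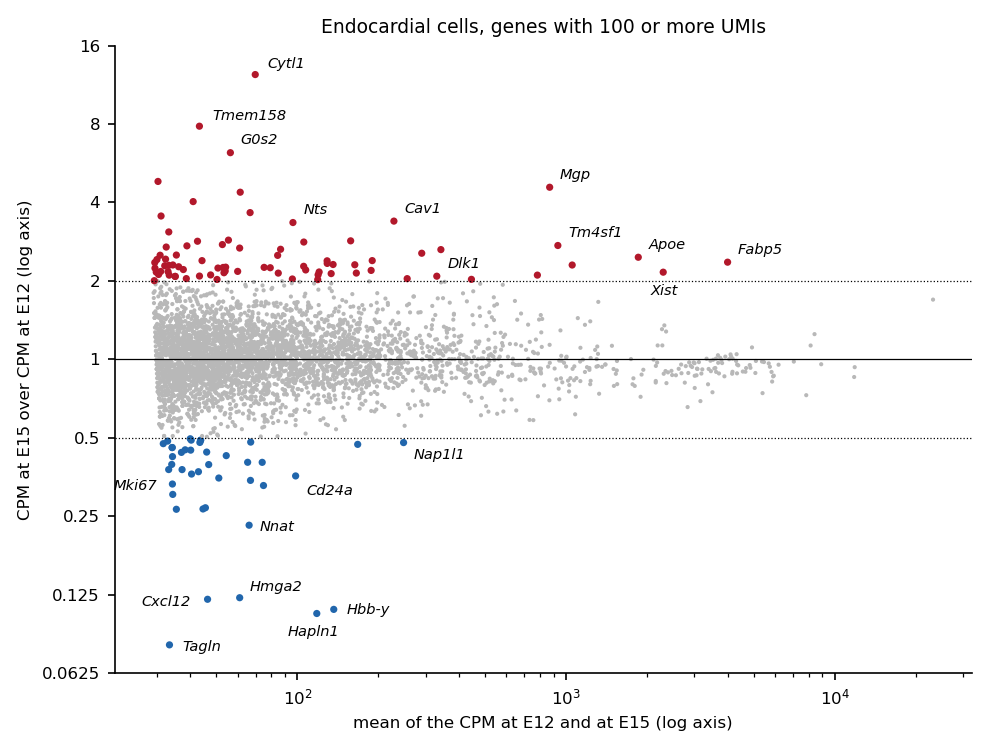
Ratio of the CPM at E15 to that at E12 (log axis) against the mean of both CPM values (log axis) for the 4097 genes with 100 or more UMIs in the summed endocardial cells. Red points are the 80 genes at least 2-fold higher and blue points the 41 at least 2-fold lower at E15, with the dotted lines at 2 and 0.5. Cytl1 is the highest point at 12.4 and Tagln the lowest at 0.0802, while Fabp5, Apoe, Mgp and Tm4sf1 are the abundant genes above the line.

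The highest ratio of all was that of Cytl1 (ENSMUSG00000062329, GRCm38 chromosome 5, 37735519 to 37739820), which encodes a small secreted protein and marks a part of the endocardium. It was at 10.4 CPM (16 UMIs) at E12 and 129 CPM (234 UMIs) at E15, a ratio of 12.4 (7.46 to 22.0). At E12 it was lower in endocardial than in coronary cells (36.7 CPM), and at E15 it was higher (30.1 CPM in coronary cells). Mgp (GRCm38 chromosome 6, 136872435 to 136875823), the matrix Gla protein that inhibits calcification and binds bone morphogenetic proteins (BMPs), went from 312 to 1427 CPM, a ratio of 4.57 (4.15 to 5.05). After thinning to 500 UMIs a UMI of Mgp was present in 12.8% of endocardial cells at E12 and 44.9% at E15. In the unthinned cells these shares were 26.9% and 65.4%. Mgp stood at 633 CPM in the E12 empty droplets and at 523 and 1488 CPM in the barcodes with no endothelial UMI at E12 and E15, so stray RNA could put a UMI in a cell and these shares are not shares of expressing cells.

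Mfap5, a glycoprotein of elastic microfibrils, was at 22.8 CPM at E12 and 99.8 at E15 (ratio 4.38, 3.03 to 6.48). Col6a3, a chain of collagen VI, was at 10.4 and 50.2 CPM (ratio 4.81, 2.81 to 8.78). Other matrix genes past 2-fold were Hmcn1 (hemicentin, 188 and 496 CPM), Smoc1 (a secreted calcium-binding protein that inhibits BMPs, 28.7 and 82.1 CPM), Fbln2 (fibulin, 47.6 and 126 CPM), Lama4 (a laminin chain of endothelial basement membranes, 48.2 and 121 CPM) and Sparc (a collagen-binding protein, 504 and 1061 CPM). Of 28 basement membrane and matrix genes with at least 100 UMIs, 5 were at least 2-fold higher and 2 at least 2-fold lower, beside 1.95% and 1.00% of all genes. Of these 28 genes, 9 were below a ratio of 1, beside 47.6% of all genes. Their median log2 ratio was 0.21. The basement membrane collagens Col4a1 and Col4a2 had ratios of 1.24 (1.14 to 1.36) and 1.15 (1.01 to 1.31), and fibronectin, Fn1, of 0.933 (0.876 to 0.993).

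Among matrix genes that were lower, Hapln1 (GRCm38 chromosome 13, 89539796 to 89611652), which links hyaluronan to proteoglycans in the cardiac jelly, was at 214 CPM (328 UMIs) at E12 and 22.6 CPM (41 UMIs) at E15. The ratio was 0.106 (0.0745 to 0.147), or 9.45-fold lower, the clearest fall by the interval of all 41 genes. Thinned to 500 UMIs, 9.05% of endocardial cells held a Hapln1 UMI at E12 and 1.02% at E15. Vcan, the proteoglycan versican that Hapln1 ties to hyaluronan, was at 75.6 and 41.9 CPM (ratio 0.554, 0.410 to 0.747), short of 2-fold. Fbn2, the fibrillin of embryonic microfibrils, was at 106 and 42.4 CPM (ratio 0.402, 0.303 to 0.531), whereas Fbn1 was at 163 and 114 CPM (ratio 0.701, 0.580 to 0.846). Thbs1 (thrombospondin, 62.5 and 23.2 CPM) and Col26a1 (a collagen, 93.2 and 37.5 CPM) were also at least 2-fold lower. In cells free of UMIs of other cell types the log2 ratio of Thbs1 was -0.17, short of 2-fold. Vcan, Fbn2 and Thbs1 were more abundant in the empty droplets of the E12 library than in its endocardial cells, at 391, 298 and 210 CPM, and Hapln1 was level with them at 214 CPM. The same held for some higher genes, with Sparc at 1233, Fbln2 at 202 and Mfap5 at 46.7 CPM in the empty droplets.

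Cav1, the coat protein of the membrane pits called caveolae, was at 104 CPM at E12 and 353 at E15, a ratio of 3.39 (2.85 to 4.06). All 7 measured caveolar and diaphragm genes had ratios above 1, where 47.6% of all genes were below it, with a median log2 ratio of 0.80, and 1 passed 2-fold, as did 1.95% of all genes. Ehd2, Cav2, Ptrf and Sdpr, all parts of the caveolar coat, had ratios of 1.98, 1.96, 1.74 and 1.73. Among 5 genes of leukocyte adhesion with enough UMIs, none was below 1 (47.6% of all genes were), 2 were at least 2-fold higher (1.95% of all genes) and the median log2 ratio was 0.91. Icam1, the integrin ligand that captures leukocytes, was at 13.7 and 48.5 CPM (ratio 3.55, 2.18 to 6.01). With barcodes thinned to 500 UMIs and selected again, the log2 ratio of Icam1 was 0.11, short of 2-fold. Cd200, which restrains myeloid cells, was at 28.7 and 105 CPM (ratio 3.65, 2.62 to 5.20). No UMI of the selectins Sele and Selp was found at either stage.

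Of 7 measured genes of antigen presentation and the interferon response, 3 were at least 2-fold higher, beside 1.95% of all genes, and the median log2 ratio was 0.69. Ifitm3, a membrane protein that blocks viral entry, was at 164 and 417 CPM (ratio 2.55, 2.21 to 2.96). Bst2, which tethers viruses to the membrane, was at 169 and 344 CPM, and the class I gene H2-D1 at 32.6 and 73.3 CPM. In the E12 empty droplets Ifitm3 was at 334 and H2-D1 at 179 CPM, more than in the endocardial cells. Bst2 was at 140 CPM there, less than in those cells. B2m, the class I light chain, had a ratio of 1.26. Other surface genes among the 20 whose interval bound lay farthest above 1 were Tm4sf1 (a tetraspanin-like endothelial protein, 500 and 1366 CPM), Cd9 (a tetraspanin, 82.1 and 234 CPM), Clec14a (an endothelial lectin, 55.4 and 156 CPM), Cxcl16 (a membrane-bound chemokine, 16.3 and 65.6 CPM) and Tmem158 (9.77 and 76.6 CPM).

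Of 13 genes of fatty acid handling, 2 had at least 100 UMIs, Fabp5 and Tcf15, and both were at least 2-fold higher, as were 1.95% of all genes. Fabp5, a carrier of fatty acids, was at 2379 CPM at E12 and 5610 at E15 (ratio 2.36, 2.27 to 2.45). Apoe, an apolipoprotein that is not on that list, was at 1073 and 2643 CPM (ratio 2.46, 2.33 to 2.61). G0s2, an inhibitor of triglyceride lipase that is also outside it, was at 15.6 and 97.0 CPM (ratio 6.21, 4.04 to 9.95). Tcf15, a transcription factor of fatty acid uptake in heart endothelium, was at 20.8 and 56.8 CPM (ratio 2.72, 1.82 to 4.19). Itm2b, a membrane protein (639 and 1470 CPM), and Nts, the precursor of the peptide neurotensin (44.3 and 148 CPM), complete the 20 genes. Nts was uneven among cells, with 20 UMIs in 1 cell at E15.

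Among the endocardial markers that took no part in the selection, 23 had at least 100 UMIs, of which 5 were at least 2-fold higher, 2 at least 2-fold lower and 4 below 1, beside 1.95%, 1.00% and 47.6% of all genes, with a median log2 ratio of 0.38. Besides Cytl1 and Smoc1 the higher ones were Edn1 (the peptide endothelin, 54.1 and 116 CPM, ratio 2.14, 1.65 to 2.80), Prr15 (85.3 and 182 CPM) and Dlk1 (a non-canonical Notch ligand, 214 and 447 CPM). The lower ones were Hapln1 and Tbx20, a T-box transcription factor, at 54.1 and 26.5 CPM (ratio 0.489, 0.336 to 0.707). Tbx20 stood at 283 CPM in the E12 empty droplets, more than in the endocardial cells. Nfatc1, the transcription factor classically used to mark endocardium, had 64.5 and 45.8 CPM (ratio 0.710, 0.524 to 0.960). Plvap, Emcn and Eng had ratios of 1.58, 1.51 and 1.63.

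Of 8 Notch pathway genes none was past 2-fold (median log2 ratio 0.19), beside 1.95% higher and 1.00% lower among all genes, and Notch1, the receptor, was at 104 and 138 CPM (ratio 1.32, 1.08 to 1.62). Jag1, a Notch ligand, had the highest ratio of that list at 1.56 (1.13 to 2.16). None of 11 BMP pathway and Id genes was past 2-fold, with Id1, a target of BMP signalling, at 212 and 147 CPM (ratio 0.693, 0.587 to 0.817). None of 7 genes of the transforming growth factor-beta pathway was either, and Tgfbr2, a receptor, was at 66.4 and 97.6 CPM. Nrg1, the neuregulin that the endocardium sends to the muscle, was at 56.0 and 63.4 CPM (ratio 1.13, 0.848 to 1.51), an interval that includes 1. Of the 25 listed endocardial and endothelial transcription factors 1, Tbx20, was past 2-fold. With shares this low over all genes, such counts set none of these lists apart. Gata4 was at 71.7 and 57.3 CPM, with an interval that includes 1 (0.606 to 1.06), and Gata6 had a ratio of 1.03 (0.823 to 1.28), and Sox18, a factor of vessel formation, had the highest at 1.78 (1.26 to 2.53).

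Of 12 genes that respond to blood flow, 2 were at least 2-fold higher (Cav1 and Edn1, beside 1.95% of all genes), 4 were below 1 (beside 47.6%) and the median log2 ratio was 0.42. Klf2, the transcription factor induced by shear stress, was at 257 and 440 CPM (ratio 1.72, 1.52 to 1.94). Klf4 was at 30.0 and 42.4 CPM (ratio 1.42, 0.971 to 2.09), and Kdr, the main receptor of vascular endothelial growth factor, at 188 and 153 CPM (ratio 0.811, 0.685 to 0.960). The chemokine Cxcl12 was at 82.7 CPM (127 UMIs) at E12 and 9.92 CPM (18 UMIs) at E15, 8.34-fold lower. Its level in the E12 empty droplets was 292 CPM, above that in the endocardial cells.

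**Figure D2:**
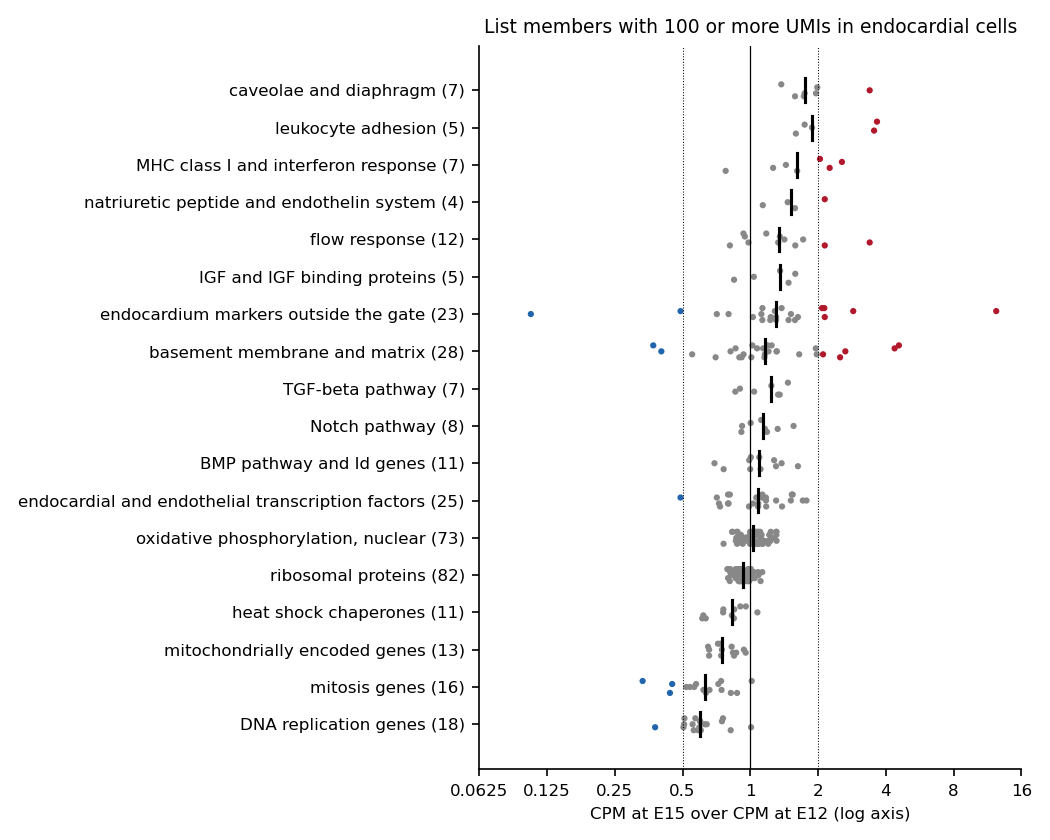
Ratio of the CPM at E15 to that at E12 (log axis) for each member with 100 or more UMIs of 18 gene lists. Points are genes, red when at least 2-fold higher and blue when at least 2-fold lower, black bars are list medians, and the number of genes stands in parentheses. The mitosis and DNA replication lists lie almost wholly below 1 and the caveolar and leukocyte adhesion lists wholly above it.

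Hmga2, a chromatin protein of embryonic cells, was at 109 CPM (167 UMIs) at E12 and 13.2 CPM (24 UMIs) at E15 (ratio 0.122, 0.0758 to 0.187). Igf2bp1, an RNA-binding protein of fetal tissues, was at 75.6 and 26.5 CPM (ratio 0.350, 0.245 to 0.494). Nnat, an imprinted gene, was at 107 and 24.8 CPM (ratio 0.231, 0.162 to 0.323), and Gpc3, a glypican that restrains growth, at 71.7 and 19.3 CPM. Nnat and Gpc3 had 342 and 453 CPM in the E12 empty droplets. Cd24a (a surface glycoprotein, 145 and 51.8 CPM), Slc38a1 (a glutamine transporter, ratio 0.303), Phlda1 (56.0 and 14.9 CPM), Bex1 (59.3 and 21.5 CPM) and Basp1 (67.1 and 26.5 CPM) were lower too. Of 14 imprinted growth genes, Dlk1 was at least 2-fold higher and Nnat at least 2-fold lower, beside 1.95% and 1.00% of all genes, and the median log2 ratio was 0.08. The abundant ones changed less, with H19 at 7483 and 9345 CPM, Igf2 at 1978 and 2668 CPM and the cell cycle inhibitor Cdkn1c at 3394 and 2634 CPM.

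Genes of cell division were lower at E15. Of 16 mitosis genes with at least 100 UMIs, 15 were below a ratio of 1, beside 47.6% of all genes. At least 2-fold lower were 3, beside 1.00% of all genes, and none was at least 2-fold higher, beside 1.95%. The median log2 ratio was -0.67. The 30 mitosis genes of the list together went from 1838 to 1174 CPM, a ratio of 0.639 (0.604 to 0.676). Mki67, the nuclear antigen of cycling cells, was at 51.5 CPM (79 UMIs) and 17.1 CPM (31 UMIs), a ratio of 0.332 (0.212 to 0.509). Ccnb1 and Ccna2, the cyclins of mitosis and of late interphase, were at 51.5 and 22.6 CPM and at 52.8 and 23.7 CPM. The exception was Smc4, a condensin subunit, at 128 and 130 CPM.

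Of 18 DNA replication genes, 17 were below 1 and 1 was at least 2-fold lower, beside 47.6% and 1.00% of all genes. Their median log2 ratio was -0.75 and their summed level 1359 and 845 CPM (ratio 0.622, 0.582 to 0.665). Uhrf1, which carries DNA methylation through replication, was at 48.2 and 18.2 CPM (ratio 0.377, 0.242 to 0.576). Mcm6, a subunit of the replicative helicase, was at 61.2 and 30.9 CPM (ratio 0.504, 0.356 to 0.709). Rfc2, a clamp loader subunit, was level at 54.7 and 55.1 CPM. Other genes of dividing cells outside both lists were also at least 2-fold lower, among them 2810417H13Rik, which encodes a partner of the replication clamp (228 and 108 CPM), Lmnb1, a nuclear lamin (99.7 and 34.2 CPM), Rangap1, of nuclear transport (54.1 and 20.4 CPM), and Nap1l1, a histone chaperone (336 and 161 CPM).

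**Figure D3:**
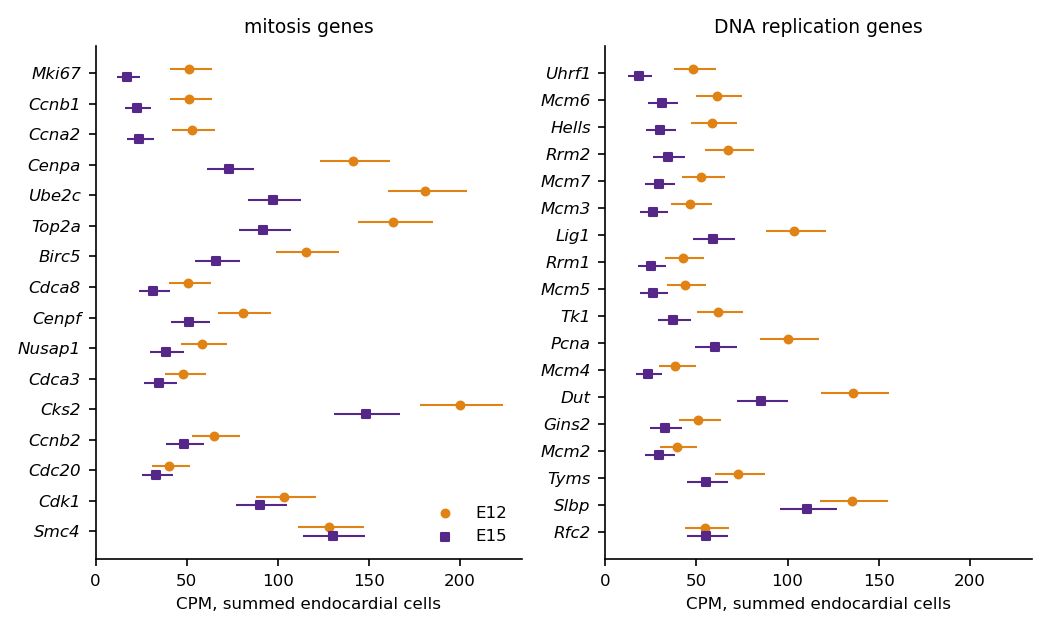
CPM in the summed endocardial cells at E12 (orange circles) and E15 (purple squares) for the 16 mitosis and 18 DNA replication genes with 100 or more UMIs, with lines for the 95% counting interval. All genes except Smc4 and Rfc2 were lower at E15.

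The promoters of this group are shown because its members moved together, and the letters are reference sequence from RefSeq (GRCm38.p6, 250 bases before to 50 after the start, read along the gene). A promoter was on hand for 14 of the 16 mitosis genes and 15 of the 18 DNA replication genes. Searched on both strands, CCAAT was in 12 of 14 mitosis promoters (85.7%) against 37.4% of all 32851 promoters. TTTGAA or TTTAAA, the letters of the cell cycle homology region known from genes of late interphase and mitosis, was in 12 of 14 (85.7%) against 27.6%, and 11 of 14 (78.6%) held both CCAAT and one of these against 10.7%. TTTCCCGC or TTTGGCGC, letters of E2F sites, was in none of the 14 mitosis promoters and in 5 of 19 DNA replication promoters (26.3%) against 1.56% of all. The genes with at least 100 UMIs had 4067 promoters on hand, for 3173 of the 4097 genes, which is also under 80%. Among these promoters, CCAAT was in 37.2% and TTTGAA or TTTAAA in 18.8%, given as a description only. Both were in 7.18% of these promoters, and the E2F letters in 3.05%. Of the 14 mitosis promoters, that of Nusap1 held neither CCAAT nor TTTGAA or TTTAAA. That of Birc5 lacked CCAAT, and that of Cks2 lacked TTTGAA and TTTAAA. A match is a description of letters, and binding was not measured. The 2 lists are sets of gene function, so these shares do not bear on the change between the stages. The 80 higher and 41 lower genes had promoters in the table for 53 and 25 genes, under 80% of each set, so a comparison of motifs over them is void. The capitals mark CCAAT on either strand in all 3 sequences, TTTGAA or TTTAAA in Mki67 and Ccnb1, and TTTGGCGC in Mcm6, for which the positions are chr7:135716330-135716629, chr13:100786437-100786736 and chr1:128359656-128359955, each on the minus strand.
Mki67: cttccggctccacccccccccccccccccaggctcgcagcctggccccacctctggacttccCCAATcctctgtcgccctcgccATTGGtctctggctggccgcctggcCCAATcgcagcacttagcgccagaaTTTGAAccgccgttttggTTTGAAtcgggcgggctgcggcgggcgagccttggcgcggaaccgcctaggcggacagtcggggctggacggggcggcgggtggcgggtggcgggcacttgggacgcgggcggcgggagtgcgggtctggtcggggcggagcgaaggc
Ccnb1: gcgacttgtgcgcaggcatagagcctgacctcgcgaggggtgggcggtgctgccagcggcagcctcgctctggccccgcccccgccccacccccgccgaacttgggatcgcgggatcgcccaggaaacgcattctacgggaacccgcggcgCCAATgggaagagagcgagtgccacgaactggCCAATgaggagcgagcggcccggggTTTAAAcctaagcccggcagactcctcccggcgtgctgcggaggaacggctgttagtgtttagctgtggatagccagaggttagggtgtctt
Mcm6: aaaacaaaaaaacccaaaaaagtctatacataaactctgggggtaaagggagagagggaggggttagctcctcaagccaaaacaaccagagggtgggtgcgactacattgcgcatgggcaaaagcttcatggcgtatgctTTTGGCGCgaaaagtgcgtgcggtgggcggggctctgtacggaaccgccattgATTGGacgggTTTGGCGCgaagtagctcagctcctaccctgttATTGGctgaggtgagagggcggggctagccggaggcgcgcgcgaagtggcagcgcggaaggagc

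In Mki67 the 3 CCAAT letters, of which 1 lies on the other strand, begin 188, 166 and 141 bases before the start and the 2 TTTGAA begin 116 and 98 bases before it. In Ccnb1 the 2 CCAAT begin 99 and 67 bases and TTTAAA begins 42 bases before the start. In Mcm6 the 2 TTTGGCGC begin 110 and 47 bases before the start. The 3 genes had ratios of 0.332, 0.439 and 0.504, as given above for Mki67 and Mcm6, with 0.294 to 0.648 as the interval of Ccnb1.

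The fall was also seen as a share of cells. A UMI of any mitosis gene was present in 53.6% (50.6% to 56.5%) of endocardial cells at E12 and 34.8% (32.5% to 37.2%) at E15. After thinning to 500 UMIs, which left out 15 and 69 shallower cells, the shares were 34.9% and 22.4%. Cells with 3 or more such UMIs made up 20.2% (17.9% to 22.7%) and 9.24% (7.88% to 10.7%), or 9.77% and 4.92% after thinning. For DNA replication genes the thinned shares were 43.0% and 29.2%. In coronary cells of the same libraries the mitosis genes summed to 2035 CPM at E12 and 2203 at E15, and the empty droplets at E12 held 1908 CPM. In barcodes with no endothelial UMI the mitosis genes summed to 2157 and 1530 CPM. The DNA replication genes summed to 1582 and 1331 CPM in coronary cells. In barcodes with no endothelial UMI they summed to 1311 and 970 CPM. At E15 these barcodes held endocardial RNA as well, with Npr3 at 224 CPM against 589 in the endocardial cells. They therefore cannot show a fall outside endocardium. In coronary cells the sum of the DNA replication genes was lower at E15 too, and that of the mitosis genes was not.

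**Figure D4:**
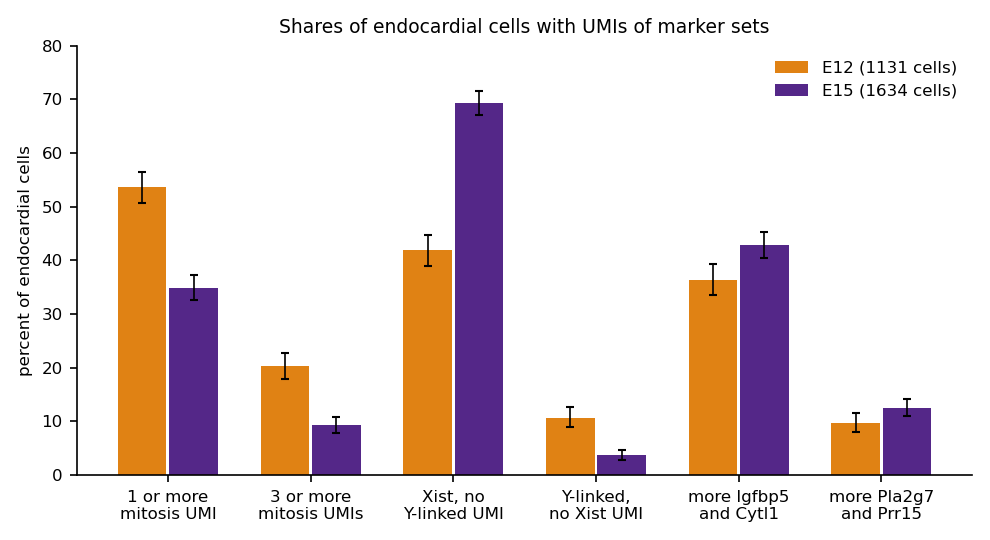
Percent of endocardial cells at E12 (orange) and E15 (purple) with UMIs of the named genes, at full depth, with error bars for the exact 95% binomial interval. Cells with a mitosis UMI fell from 53.6% to 34.8%, and cells with Xist but no Y-linked UMI went from 41.8% to 69.3%.

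Within the endocardial cells, those with more UMIs of Igfbp5 and Cytl1 than of Pla2g7 and Prr15 numbered 411 (36.3%) at E12 and 701 (42.9%) at E15, and the reverse 109 (9.64%) and 204 (12.5%). Thinned, the shares were 21.7% and 30.1%, and 4.93% and 8.18%. As Cytl1 and Prr15 themselves changed, these shares are not sizes of cell types. Mgp had ratios of 4.53 (3.87 to 5.34) and 5.22 (3.79 to 7.34) in the 2 kinds of cell, Apoe of 2.46 and 2.61, Fabp5 of 2.09 and 2.42, and Hapln1 of 0.113 and 0.0682. Edn1 had ratios of 1.57 (0.880 to 2.90) in the Igfbp5 cells and 5.41 (2.14 to 17.5) in the Pla2g7 cells, with 5 and 41 UMIs in the latter, and the intervals overlapped.

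The coronary cells of the same libraries, 221 at E12 and 1147 at E15, show which differences were shared. Of the 80 genes higher in endocardium, 26 were also at least 2-fold higher in coronary cells, where 4.76% of all 4097 genes were, and 66 were above 1. Of the 41 lower genes, 11 were at least 2-fold lower in coronary cells, where 2.32% of all genes were, and 33 were below 1. The median coronary log2 ratio of all 4097 genes was 0.01, close to a ratio of 1. A coronary count of 0 was read as 3 counts, which put Colec11 below 1 although it had 0 coronary UMIs at E12 and 10 at E15. Hapln1, Nnat and Hmga2 were lower in coronary cells too, with ratios of 0.124, 0.170 and 0.292, and Cav1 (5.83), Ifitm3 (4.84) and Fabp5 (2.59) were higher. Mfap5 and Icam1 were not, with coronary ratios of 0.717 (0.361 to 1.53) and 0.841 (0.387 to 2.02). Cytl1, at 0.820 (0.441 to 1.62), differed most among the genes higher at E15. Its endocardial ratio was 15.1 times the coronary one (6.88 to 33.1 by an approximate interval). As these genes were chosen by their endocardial ratio, that interval adds no support.

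Barcodes with no endothelial UMI and at least 3 UMIs of the fibrillar collagens Col1a1, Col1a2 and Col3a1, 1200 at E12 and 571 at E15, gave a further comparison, added after the values were seen. There 36 of the 80 higher genes were also at least 2-fold higher, against 3.17% of all 4097, and 10 of the 41 lower genes at least 2-fold lower, against 1.81%. The ratios there were 2.93 for Mgp, 3.80 for Cav1, 2.32 for Apoe and 2.25 for Fabp5, near those of the endocardium for the last 3. Cytl1 and Mfap5, which differed from coronary cells, were higher there too, with ratios of 5.51 (1.81 to 20.0) and 11.3 (6.31 to 21.8). Hmga2 was at 0.186, and Hapln1 at 0.535. Cd200 and Hmcn1 were below 1 there, at 0.683 and 0.659. These barcodes also held RNA of selection genes at E12 and E15. Fabp4 was at 8.25 and 61.6 CPM, Cpe at 32.5 and 154 CPM and Tmem108 at 84.6 and 77.0 CPM. Cytl1 stood at only 2.58 and 14.2 CPM in them, and Fabp5 at 279 and 627 CPM, below the endocardial cells. Such barcodes therefore cannot show a change outside the endothelium.

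**Figure D5:**
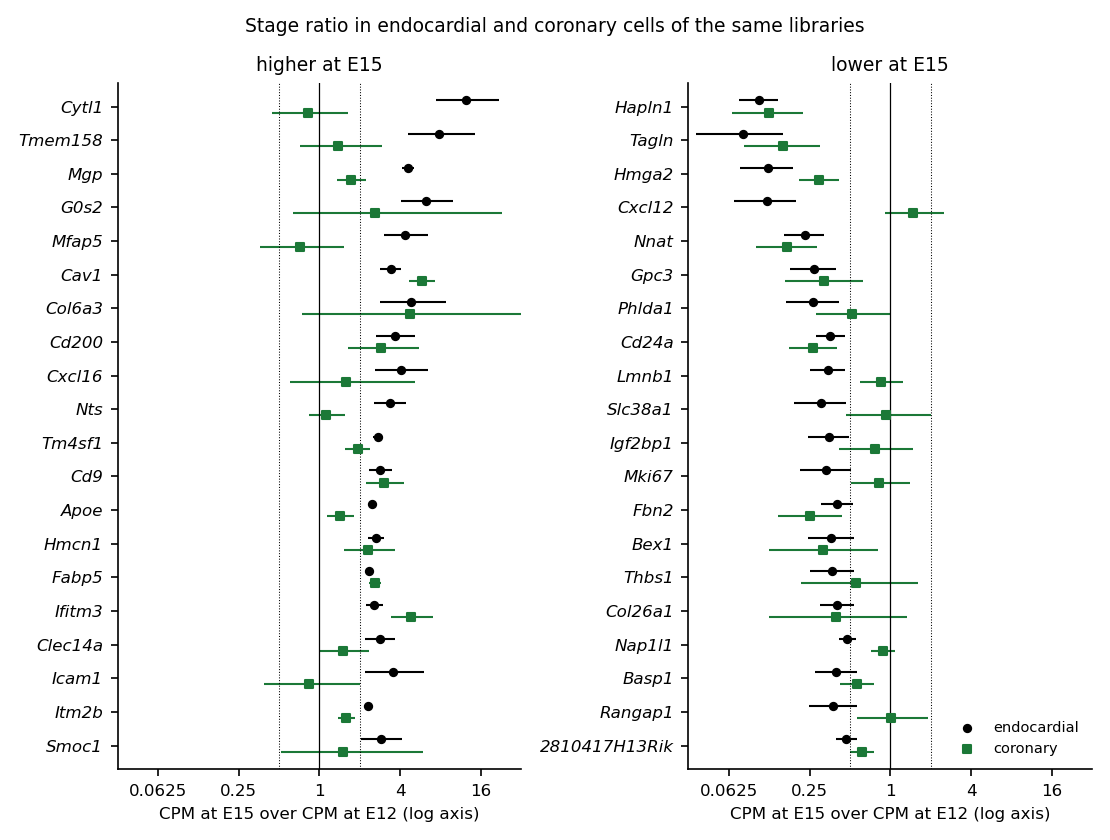
Ratio of the CPM at E15 to that at E12 (log axis) for the 20 genes highest and the 20 lowest at E15 by the interval bound nearest 1, in endocardial (black circles) and coronary cells (green squares), with 95% counting intervals, the coronary interval of Col6a3 running past the axis. The points of Cytl1, Mfap5, Icam1, Cxcl12 and Rangap1 lie on opposite sides of 1 in the 2 kinds of cell, and each of their coronary intervals includes 1.

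Other values of the libraries moved with these results. The 9 erythroid genes summed to 505 CPM at E12 and 104 at E15 in endocardial cells, and the embryonic globin Hbb-y to 246 and 27.0 CPM against 2129 in the E12 empty droplets, with Alas2 at 0 at E15. Up to 62 of the 378 Hbb-y UMIs at E12 came from 1 cell. The markers of cardiomyocytes summed to 481 and 351 CPM (Myh6 and Sln at 0 at E12, Ttn at 0 at E15), of mesenchyme to 704 and 424, of mural cells to 150 and 60.1 (Myh11 at 0 at both stages, Cspg4 at E15), of macrophages to 42.3 and 34.2 (Ptprc at 0 at E12, C1qa, C1qc and Ppbp at E15), of lymphatic endothelium to 57.3 and 48.5 (Reln at 0 at E15) and of epicardium to 25.4 and 18.2. Tagln, a smooth muscle protein and the gene with the lowest ratio at 61.9 and 4.96 CPM (0.0802, 0.0356 to 0.159), is 1 of the mural markers, and its level in the E12 empty droplets was 176 CPM. In all, 25 of the 41 lower and 52 of the 80 higher genes had more CPM in the empty droplets than in the E12 endocardial cells, beside 50.4% of all genes. With the empty-droplet profile subtracted from the E12 cells until no Hbb-y was left, 77 of the 80 remained at least 2-fold higher and 31 of the 41 at least 2-fold lower. Of the 41, 37 stayed below a ratio of 1. The E15 file held no empty droplets, so the same could not be done there. Subtraction at E12 alone raises the ratio of genes with more CPM in the empty droplets, as 52 of the 80 had. The 77 were thus largely fixed by the method and say nothing about stray RNA at E15. In cells with 2 or more endothelial UMIs and none of 7 genes of other cell types, 34 of the 39 higher and 4 of the 5 lower genes that kept 100 UMIs remained past 2-fold.

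The sex of the pooled embryos is not in the labels. Xist, the RNA that silences an X chromosome in females, was at 1457 and 3145 CPM (ratio 2.16), and Ddx3y, a Y-linked gene, at 46.9 and 21.5 CPM. Cells with Xist and no Y-linked UMI made up 41.8% at E12 and 69.3% at E15 (33.2% and 60.1% thinned), and cells with a Y-linked and no Xist UMI 10.7% and 3.67% (4.66% and 1.73% thinned). Xist also had ratios of 2.17 in coronary and 1.60 in collagen-rich cells. In cells with Xist and no Y-linked UMI alone, 52 of the 80 higher genes kept at least 100 UMIs and 40 of them were at least 2-fold higher, and 11 of 12 of the lower ones were at least 2-fold lower. In cells with no mitosis UMI, these counts were 37 of 48 and 8 of 8. The part of the longer digestion at E15 was not tested.

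Other broad groups moved slightly. The 13 mitochondrially encoded genes were all below 1 (median log2 ratio -0.42, summed 32943 and 26331 CPM), and 68 of 82 ribosomal protein genes were (median -0.11), beside 47.6% of all genes. The 73 nuclear genes of oxidative phosphorylation had a median of 0.04. Of 11 heat shock chaperones 10 were below 1 (median -0.27), beside the same 47.6%, with Hspe1, the mitochondrial co-chaperonin, at 685 and 423 CPM (ratio 0.618, 0.562 to 0.679). Of 13 immediate-early genes, which can respond to tissue dissociation, 1 was at least 2-fold higher, beside 1.95% of all genes. This was Socs3 at 22.8 and 47.4 CPM, and Fos was at 188 and 233 CPM.

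The selection genes are given as a description only. Npr3, a natriuretic peptide receptor of the endocardium, was at 592 and 589 CPM, Tmem108 at 403 and 600, Gsta4 at 162 and 165, and Cpe, a peptide-processing enzyme, at 206 and 692. With Cpe left out of the selection, 1027 and 1336 cells remained, with 70 genes at least 2-fold higher and 34 lower.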

How the data were processed

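Sorted cardiac cells of 2 stages were read as droplet 3' single-cell libraries. Per the labels, the authors deposited UMI counts per gene and barcode from Cell Ranger 2.2 with the mm10 reference; the E15 file held only called barcodes, and the E12 file all 737280. E12 barcodes were called here by the Cell Ranger rule (0.1 of the 0.99 quantile of 3000 expected cells). Counts were summed over endocardial cells of a stage, with no doublet removal and no model. Ratios of CPM carry exact conditional binomial 95% intervals (scipy 1.17.1), tested on simulated counts, and shares exact Clopper-Pearson ones. Intervals cover counting error only. A gene counted as changed at a ratio of at least 2 or at most 0.5 with at least 100 UMIs over both sums. No p-value was computed, as each stage had 1 library. The text names the 20 genes higher and 20 lower whose interval bound lay farthest from 1, sex-linked and erythroid genes apart, and members of 40 gene lists with the most UMIs or past 2-fold. Some other members were named for their ratio, such as Jag1 and Sox18 as the highest of a list and Smc4 and Rfc2 as exceptions. The members and lists were chosen with earlier results of these data known. Gene positions are from GENCODE M21 (GRCm38). Alternatives were the UMI minimum, scaling, cell weighting, quality limits, doublet scores, thinning, the cutoff, the selection genes, cell cycle, sex, subsets and, added after seeing the data, subtraction of empty droplets and cells free of coronary genes. The P2 and adult libraries were not used.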

Additional observations from a re-analysis of the deposited data

Results flagged for a closer look

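For 20 of the 121 genes past 2-fold, the stage ratio lay on the other side of 1 in coronary cells, and the endocardial ratio divided by the coronary one had an approximate 95% counting interval that excluded 1. With 1 library a stage this is a comparison of 2 libraries. The 121 genes were chosen by their endocardial ratio, which is also the numerator of this quotient. The choice thus moves the quotient away from 1, and its interval adds no support. The coronary interval itself excluded 1 only for Hba-a1, Hba-a2, Fam174b and Mettl1. For the others an opposite direction in coronary cells is thus not shown. Over all 4097 genes the interval of the quotient of the 2 ratios lay above 1 for 287 and below 1 for 266. These 2 counts set no condition on the side of 1, so they are not the share for the rule above. That share was not counted, so nothing is read from the number 20 of 121. Among genes higher in E15 endocardium, this quotient was 15.1 for Cytl1, 6.10 for Mfap5, 4.22 for Icam1, 3.10 for Edn1, 2.60 for Rcan1, an inhibitor of calcineurin, 2.72 for the nucleoside transporter Slc29a1 and 2.06 for Degs1, of ceramide synthesis. It was 5.16 for Mettl1, 4.96 for Fam174b, 3.44 for Rpap3, 3.01 for BC005561, 2.92 for Rnpepl1 and 2.69 for Tecpr1.

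Among genes lower in E15 endocardium, the quotient was 0.0807 for Cxcl12, which stood at 52.4 and 77.9 CPM in coronary cells at E12 and E15. It was 0.174 for Gatm, of creatine synthesis, on 5 coronary UMIs at E12, 0.246 for Ccnb1, 0.281 for Ccna2 and 0.374 for Rangap1. The cyclins were at 31.4 and 56.0 CPM (Ccnb1) and 39.3 and 62.9 CPM (Ccna2) in coronary cells, on 12 and 15 UMIs at E12.

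It was 0.0266 for Hba-a1 and 0.00977 for Hba-a2, nearly identical alpha globin genes. In coronary cells these went from 39.3 to 484 CPM and from 15.7 to 428 CPM, while Hbb-y fell there to a ratio of 0.0230. In endocardial cells, 1 cell held 53 of the 173 Hba-a1 UMIs at E12, and 1 held 41 of 67 at E15. For Hba-a2, 1 cell held 43 of 108 UMIs at E12 and 1 held 26 of 34 at E15. A counting interval does not cover such unevenness, so an opposite direction is not shown for Hba-a1 and Hba-a2 either.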

How the results depend on the processing

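The counts of 80 and 41 genes depended mostly on how many genes and cells were read. With a minimum of 50, of 300 or of no UMIs, 152 and 121, 31 and 5, and 1647 and 1907 genes were at least 2-fold higher and lower. The counts were 19 and 2 after thinning, which cut both cells and UMIs, 51 and 7 in cells with 2 or more endothelial UMIs and none of other cell types, 45 and 11 in cells with no mitosis UMI, 38 and 8 in the Igfbp5 cells and 16 and 0 in the Pla2g7 cells. The lower genes numbered 13 in cells with 2 or more endocardial and no coronary UMIs and 18 in cells with Xist and no Y-linked UMI. With E12 barcodes of 1000 or more UMIs they were 101 and 38 of 3849 genes. In the smaller sets of cells and after thinning fewer genes reached 100 UMIs, between 486 and 2600 of them. Scaling by the median ratio, by trimmed means or without erythroid, mitochondrial and ribosomal genes gave 76 and 43, 75 and 49, and 71 and 52, and moved the median log2 ratio by -0.02, -0.03 and -0.06. Of the 40 genes named, Mki67 alone changed direction under any of the 23 alternatives, to a log2 ratio of 0.21 in the Pla2g7 cells. The UMI minima leave each ratio as it is and the scalings shift all genes alike by little. These alternatives could therefore not turn a gene past 2-fold. Hbb-y, Hba-a1 and Hba-a2 turned to 3.61, 4.06 and 3.09 by subtraction of empty droplets, as built, and Hba-a2 to 0.48 in cells free of other cell types' UMIs. Subtraction gave 109 and 35 genes and put Gpc3 at -0.17. It left 37 of the 41 lower genes below a ratio of 1, so these globins were not the only genes to turn. Cytl1 ran from 0.14 in the Pla2g7 cells, chosen for low Cytl1, to 4.11, Icam1 was at 0.11 after thinning, and Thbs1 at -0.17 in cells free of other cell types' UMIs. The 0.14 is a bound, as the Pla2g7 cells held 0 Cytl1 UMIs at E12 and 5 at E15, and 3 counts were put in place of the 0. No paired analysis was possible because each stage had 1 library.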
